A study of Mus musculus with 9 samples.

Results

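The cytokine genes of the IL-6 and IL-12 families, together with Il10, were examined in RAW 264.7 cells, an established mouse macrophage line. The 9 genes (Il6, Lif, Osm, Il27, Ebi3, Il23a, Il12b, Il12a and Il10) were taken by symbol from a table of read counts for 51826 genes. Vehicle cells received solvent only, LPS cells received 300 ng/mL lipopolysaccharide (LPS, a bacterial cell wall component) for 6 h, and the calycosin plus LPS cells were first given 100 µg/mL calycosin, a plant isoflavone, for 24 h and then the same LPS dose and time. Each group had 3 biological replicates, as the labels call them. The line derives from a single tumour, so p-values measure the spread between cultures of 1 line, and no group received calycosin alone. The design asks how calycosin pretreatment changes the LPS response of macrophage transcripts.

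IL-6, leukaemia inhibitory factor (Lif) and oncostatin M (Osm) are secreted ligands that signal through the shared receptor chain gp130, encoded by Il6st, and activate JAK kinases and STAT3. The IL-12 family consists of paired chains: Il12a with Il12b forms IL-12, Il23a with Il12b forms IL-23, and Il27 with Ebi3 forms IL-27, so that a chain is not a complete cytokine without its partner. Macrophages exposed to LPS are a known source of these cytokines, and IL-10, which acts through its own receptor and STAT3, restrains their production.

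The genes lie on 7 chromosomes of GRCm38, with positions here from GENCODE M21. Lif (chr11:4257557-4272514) and Osm (chr11:4236420-4241026) are neighbours on the plus strand of chromosome 11, where Il12b (chr11:44400063-44414033) also lies. The remaining genes are Il6 (chr5:30013114-30019981), Il12a (chr3:68690644-68698547), Il23a (chr10:128296139-128298752), Il27 (chr7:126589010-126594941), Ebi3 (chr17:55952640-55957022) and Il10 (chr1:131019845-131024974). All 9 are annotated as protein-coding, and Il23a and Il27 are on the minus strand. RefSeq promoter windows of GRCm38.p6 were matched for Il6, Il12a, Il12b, Ebi3 and Lif. The 250 bases before the RefSeq start, which differs from the GENCODE start for Lif and Ebi3, are printed for 3 genes that rose with LPS and for Il12b, which stayed near the detection floor. Capitals mark matches on either strand to the kappaB motif (bound by NF-kappaB, searched by name), to the AP-1 motif TGANTCA or to the C/EBP motif TTGCNNAA, none of which overlapped another.
Il6 (chr5:30012864-30013113, plus strand): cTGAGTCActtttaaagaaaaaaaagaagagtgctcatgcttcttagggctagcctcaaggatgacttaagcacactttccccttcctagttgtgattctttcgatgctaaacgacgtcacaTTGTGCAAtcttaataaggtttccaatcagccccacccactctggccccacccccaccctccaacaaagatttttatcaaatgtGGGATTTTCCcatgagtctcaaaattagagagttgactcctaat
Lif (chr11:4257318-4257567, plus strand): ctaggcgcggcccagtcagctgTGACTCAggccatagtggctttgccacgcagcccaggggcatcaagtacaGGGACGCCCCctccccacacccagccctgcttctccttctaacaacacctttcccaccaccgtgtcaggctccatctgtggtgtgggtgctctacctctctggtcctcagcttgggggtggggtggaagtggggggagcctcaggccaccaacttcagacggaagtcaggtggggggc
Ebi3 (chr17:55952373-55952622, plus strand): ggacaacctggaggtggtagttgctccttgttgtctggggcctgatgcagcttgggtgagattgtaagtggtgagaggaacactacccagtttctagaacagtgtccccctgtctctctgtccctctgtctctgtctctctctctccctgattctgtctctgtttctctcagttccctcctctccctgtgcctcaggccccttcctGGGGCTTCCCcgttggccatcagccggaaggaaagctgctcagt
Il12b (chr11:44399813-44400062, plus strand): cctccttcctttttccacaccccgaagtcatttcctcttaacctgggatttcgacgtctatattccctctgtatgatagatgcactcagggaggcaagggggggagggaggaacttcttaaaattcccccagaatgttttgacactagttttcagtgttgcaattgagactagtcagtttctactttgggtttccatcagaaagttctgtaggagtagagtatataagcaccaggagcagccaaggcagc
A kappaB match stood 44 to 35 bases before the start in both Il6 (GGGATTTTCC) and Ebi3 (GGGGCTTCCC), and 178 to 169 bases before it in Lif. AP-1 matches were found in Il6 and Lif, and a C/EBP match in Il6 only. Among 32851 windows of the same length, 7.25% held a kappaB match, 6.75% an AP-1 match and 9.56% a C/EBP match. The Il12b window and the Il12a windows held none of these, which says only that these letters are not in these bases.

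The libraries held 27784737 to 38524105 counts, and levels are given as CPM, counts scaled to a common depth, after TMM scaling, a correction for library composition. The floor used for a value of 0 was 3 counts, which correspond to 0.0602 to 0.137 CPM; this floor covers counting error only. Macrophage markers were present in all libraries, with all 10 listed genes detected in each group, although Mertk was near 0. Summed levels were 4880 to 5366 CPM with vehicle, 5240 to 5481 with LPS and 3709 to 4350 with calycosin plus LPS. Within these sums single genes moved in both directions between vehicle and LPS. Group means of Lyz2 went from 2560 to 1193 CPM and of Csf1r from 477 to 127. Those of Cd14 went from 513 to 1248 CPM and of Fcgr1 from 50.8 to 282. Summed T cell, B cell, epithelial and neutrophil markers were at most 0.374 CPM in any library, and fibroblast markers at most 1.37 CPM. Dendritic cell markers summed to 0.456 to 0.678 CPM with vehicle, 1.27 to 2.46 with LPS and 0.868 to 1.59 with calycosin plus LPS, with Flt3 and Siglech at 0. The other markers in this sum moved in opposite directions. In the same order of groups, Xcr1 had means of 0.0274, 1.63 and 0.443 CPM, and Zbtb46 of 0.505, 0.113 and 0.867 CPM. Endothelial markers summed to 0.391 to 0.852, 4.16 to 6.27 and 0.845 to 1.17 CPM in the same order, mostly from Cdh5. The part of these marker shifts in the cytokine results was not tested. The libraries that stood apart, 2 in all, did so in the share of counts from mitochondrially encoded genes: vehicle replicate 3 had 21.9% against 3.79% and 3.68% in the other vehicle libraries, and calycosin plus LPS replicate 2 had 7.45% against 17.2% and 19.4%. The LPS libraries had 13.0% to 14.7%.

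Of the 9 genes, 6 had enough counts to be tested (Il6, Lif, Osm, Il27, Ebi3 and Il23a). All of these were higher with LPS than with vehicle, and with calycosin given before LPS 5 were lower than with LPS alone while Il23a was higher. All 6 were still above vehicle in the cells that had received both. Il6, Lif and Il27 passed the filter on low counts only through the stimulated groups, so the number of higher calls is no measure of how the family responds. Over all 14458 genes tested with edgeR's quasi-likelihood F test at a Benjamini-Hochberg adjusted p below 0.05, 27.3% were higher and 28.9% lower in LPS versus vehicle. In calycosin plus LPS versus LPS, 16.1% were higher and 12.9% lower, and in calycosin plus LPS versus vehicle 25.4% were higher and 23.6% lower. This balance depends on the scaling: with library totals only, 1879 genes were higher and 7744 lower with LPS than vehicle, against 3954 and 4180 with TMM. Calycosin plus LPS versus LPS then had 3418 higher and 710 lower, against 2333 and 1871. Calycosin plus LPS versus vehicle gave 2034 higher and 5143 lower with library totals only, against 3672 and 3413. Without both libraries that stood apart the family counts were the same (6 higher with LPS, and 1 higher and 5 lower with calycosin than with LPS alone), and with library totals only Il27 was the 1 family gene whose call was lost.

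**Figure D1:**
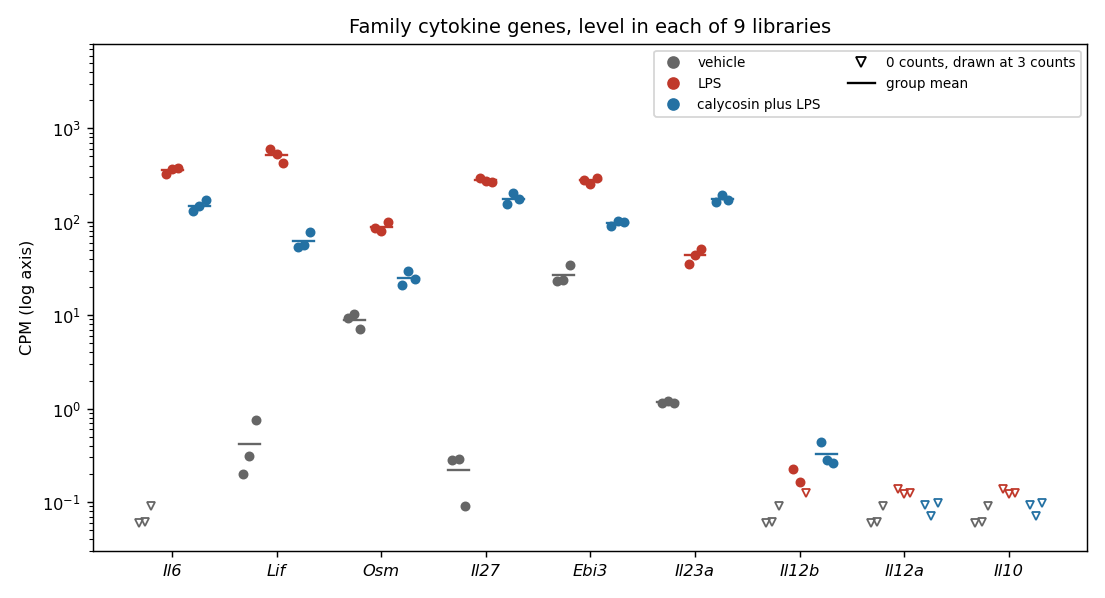
Level of each of the 9 cytokine genes in each of the 9 libraries, in CPM on a log axis, with 3 points per group and the group mean as a line. Open triangles mark 0 counts drawn at the level of 3 counts: Il12a and Il10 are at 0 in every library, and Il23a is the one gene whose calycosin plus LPS points all lie above its LPS points by a wide margin.

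Among the gp130 ligands, Il6 had 0 counts in all 3 vehicle libraries, 326, 364 and 376 CPM in the LPS libraries and 131, 146 and 169 CPM in the calycosin plus LPS libraries. The 3 groups did not overlap. Against the floor of 3 counts per library the LPS mean was at least 5003-fold higher than vehicle, and the calycosin plus LPS mean at least 2096-fold higher. With calycosin, Il6 was 2.39-fold lower than with LPS alone (log2 fold change -1.26, SE 0.13, adjusted p = 6.07e-04, edgeR).

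Lif, a ligand named for its effect on leukaemia cells, had 0.201, 0.308 and 0.760 CPM with vehicle and 608, 531 and 429 CPM with LPS. With calycosin plus LPS it had 53.4, 56.3 and 77.0 CPM, so that the highest of these libraries was well below the lowest LPS library. Lif rose 1313-fold with LPS (log2 fold change 10.36, SE 0.43, edgeR adjusted p = 5.65e-08). In calycosin plus LPS versus LPS its log2 fold change was -3.07 (SE 0.30, adjusted p = 1.69e-04, edgeR), which is 8.40-fold lower and ranked 62 from the lowest of all genes tested. The level with both agents remained 156-fold above vehicle.

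Osm, which lies 21137 bases from Lif, start to start, already had 9.30, 10.3 and 7.12 CPM with vehicle. Its levels were 86.0, 80.5 and 98.6 CPM with LPS and 21.0, 29.6 and 24.3 CPM with calycosin plus LPS, again with no overlap between groups. The rise with LPS was 9.92-fold (log2 3.31, SE 0.19, adjusted p = 4.47e-07, edgeR). With calycosin Osm was 3.53-fold lower than with LPS alone (log2 fold change -1.82, SE 0.18, adjusted p = 1.69e-04, edgeR) and 2.81-fold above vehicle (adjusted p = 1.13e-04, edgeR). The difference from vehicle was not called on the log2(TPM + 1) scale with limma (log2 difference 0.94, adjusted p = 0.0521).

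Of the 2 chains of IL-27, Il27 was nearly absent with vehicle (0.281, 0.288 and 0.0912 CPM) and Ebi3 was not (23.0, 24.1 and 34.6 CPM). With LPS the chains reached like CPM values: Il27 had 293, 271 and 269 CPM, and Ebi3 had 282, 256 and 295 CPM. Il27 thus rose 1175-fold (log2 10.20, SE 0.29, adjusted p = 6.41e-09, edgeR) and Ebi3 10.2-fold (log2 3.35, SE 0.17, adjusted p = 2.30e-07, edgeR). With calycosin plus LPS, Ebi3 had 90.2, 102 and 99.0 CPM, below every LPS library, and was 2.86-fold lower than with LPS (log2 fold change -1.52, SE 0.16, adjusted p = 2.52e-04, edgeR).

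Il27 had 153, 202 and 174 CPM with calycosin plus LPS, 1.57-fold lower than with LPS (log2 fold change -0.65, SE 0.18, adjusted p = 0.0223, edgeR). This was the smallest of the 6 differences, and it did not hold under every setting. In TPM, the authors' length-scaled level, the groups overlapped, with 234, 415 and 238 TPM against 372, 344 and 360 TPM with LPS. The highest of these values came from calycosin plus LPS replicate 2, 1 of the libraries with an unusual mitochondrial share. With library totals only the log2 difference was -0.34 (adjusted p = 0.331, edgeR), and leaving out any of the LPS libraries, or calycosin plus LPS replicate 1 or 3, gave edgeR adjusted p-values of 0.0523 to 0.0964.

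The ratio of Il27 to Ebi3 in TPM was 0.0133, 0.0128 and 0.00249 with vehicle, 1.19, 1.21 and 1.04 with LPS and 1.95, 2.28 and 2.01 with calycosin plus LPS. The 3 groups did not overlap in this ratio. The calycosin plus LPS ratio exceeded the LPS ratio by 0.86 on the log2 scale (exact permutation test, two-sided p = 0.1, adjusted p = 0.113 over 9 ratio tests), and 0.1 is the smallest p that 3 against 3 libraries allow. Both genes overlap another gene. Il27 shares 103 of its 1021 exonic bases with Apobr on the opposite strand, and Ebi3 shares 270 of 1154 with the antisense transcript Gm16712. Whether the counting used strand is not given in the sources used here, so reads of overlapping bases cannot be assigned with certainty. Apobr was at 80.4 to 84.2 CPM with vehicle, 378 to 482 with LPS and 417 to 470 with calycosin plus LPS, and Gm16712 at 2.01 to 3.80, 34.8 to 48.1 and 11.3 to 16.2 CPM. In the vehicle libraries, where Apobr had 2769 to 4038 counts, Il27 had 3 to 14. The order of the Gm16712 groups was that of Ebi3, and its part in the Ebi3 values was not tested.

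Il23a, the chain particular to IL-23, was the 1 tested family member with its highest level in the cells that received both agents. It had 1.14, 1.19 and 1.16 CPM with vehicle, 35.6, 43.7 and 51.5 CPM with LPS and 164, 194 and 171 CPM with calycosin plus LPS. The lowest library with calycosin was above the highest LPS library by more than the range of either group. Il23a rose 37.3-fold with LPS (log2 5.22, SE 0.17, adjusted p = 1.36e-08, edgeR) and was a further 4.05-fold higher with calycosin (log2 2.02, SE 0.14, adjusted p = 5.19e-05, edgeR), rank 326 from the highest of all genes tested. Against vehicle the difference was 151-fold. In all 21 alternative settings the difference between calycosin plus LPS and LPS was called, with log2 values from 1.89 to 2.36.

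Il12b, which encodes the chain that IL-12 and IL-23 share, was near the floor. It had 0 counts in the vehicle libraries, 5, 4 and 0 with LPS and 14, 12 and 8 with calycosin plus LPS. These are 0.438, 0.282 and 0.259 CPM in the last group, at least 4.59-fold above vehicle by the floor of 3 counts per library. Il12b failed the filter on low counts. When the filter was dropped, calycosin plus LPS versus vehicle gave an adjusted p of 0.00563 and calycosin plus LPS versus LPS one of 0.413 (edgeR). LPS versus vehicle gave 0.0239 (0.00717 with DESeq2). Il12b also passed the filter in most fits that left out 1 library; there LPS versus vehicle had adjusted p-values of 0.00474 without LPS replicate 3, 0.0692 without LPS replicate 1 and 0.0589 without LPS replicate 2 (edgeR).

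Il23a therefore exceeded its partner Il12b by a wide margin in TPM. The Il23a to Il12b ratio was 234 and 380 in the LPS libraries with Il12b counts, and 558, 1045 and 970 with calycosin plus LPS. The difference in this ratio between the stimulated groups was 1.29 on the log2 scale with a pseudocount of 0.1 TPM (exact permutation test, two-sided p = 0.2), and it rests on Il12b counts of at most 14 per library. Il12a, the other partner of Il12b, and Il10 had 0 counts in all 9 libraries. Their levels were thus under 0.137 CPM in every library, and no fold was formed for them.

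**Figure D2:**
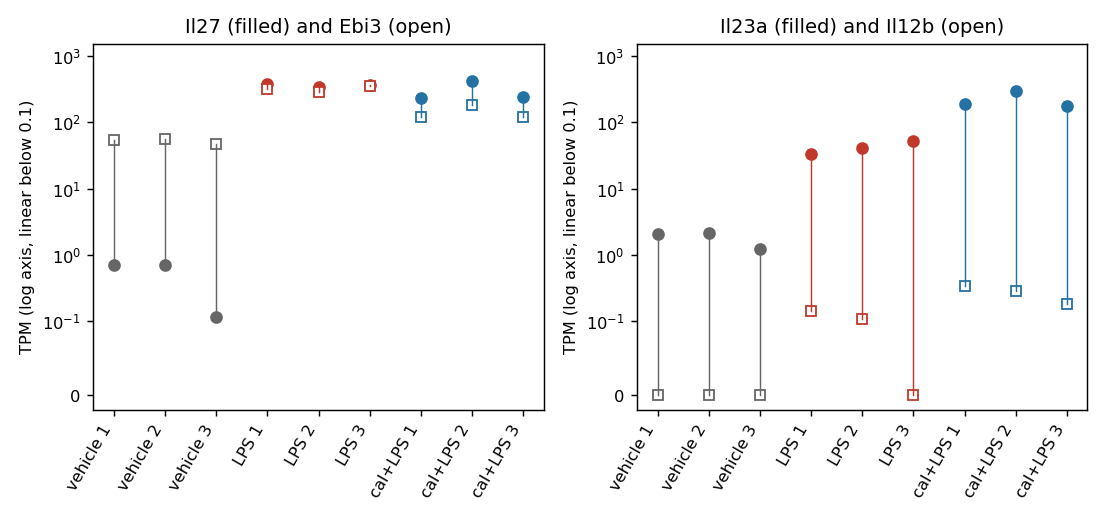
TPM of the chains of IL-27 (left panel, Il27 filled and Ebi3 open) and of IL-23 (right panel, Il23a filled and Il12b open) in each of the 9 libraries, on a log axis that is linear below 0.1. Il27 and Ebi3 lie close together with LPS, at ratios of 1.04 to 1.21, while Il23a lies more than 100 times above Il12b wherever Il12b was detected.

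Ordered by TPM, the LPS cells had most Il6 (406 ± 47.4, SD, n = 3), then Il27 (359 ± 14.3) and Ebi3 (313 ± 30.7). Lif (186 ± 26.7), Osm (52.2 ± 6.92) and Il23a (42.1 ± 8.94) followed. The SD ranges of Il6 and Il27 overlapped, as did those of Osm and Il23a. With calycosin plus LPS the order was Il27 (296 ± 103), Il6 (222 ± 51.3), Il23a (220 ± 67.0), Ebi3 (140 ± 36.2), Lif (29.0 ± 5.19) and Osm (19.2 ± 7.40), so Il23a moved from the lowest to among the highest of the 6. From Il27 down to Ebi3 the SD ranges of neighbours overlapped, and those of Lif and Osm did so too. With vehicle, Ebi3 led at 51.8 ± 4.66 TPM, ahead of Osm (9.69 ± 3.95), Il23a (1.82 ± 0.518), Il27 (0.513 ± 0.344) and Lif (0.205 ± 0.0859).

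**Figure D3:**
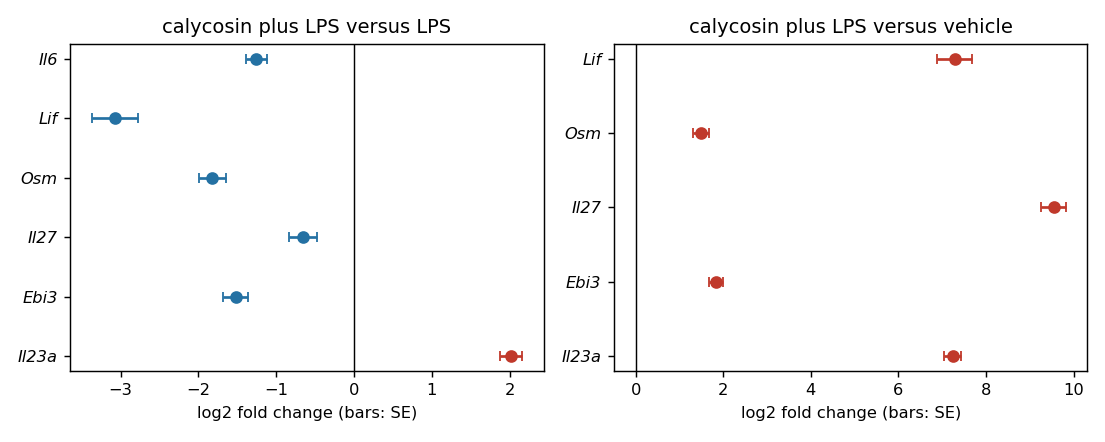
Log2 fold change of each tested gene for calycosin plus LPS versus LPS (left panel) and versus vehicle (right panel), as points with bars of 1 SE. Il23a lies at 2.02 and the other 5 between -3.07 and -0.65 in the left panel, and all values in the right panel are above 0; Il6 is left out of the right panel because vehicle had no counts.

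**Figure D4:**
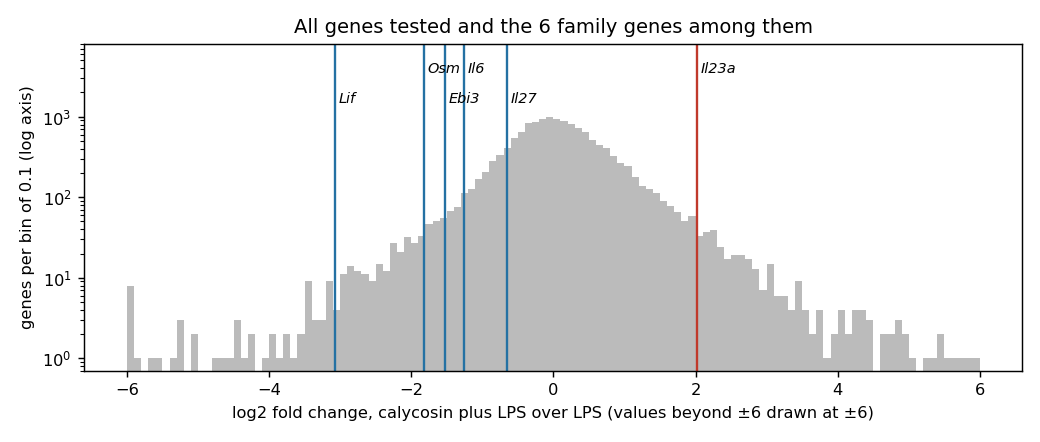
Histogram of log2 fold changes (calycosin plus LPS versus LPS) over all 14458 genes tested, as genes per bin of 0.1 on a log axis, with lines at the 6 cytokine genes. Lif lies in the lower tail at -3.07 and Il23a in the upper tail at 2.02, whereas Il27 lies at -0.65 among many genes.

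Genes with the most similar pair of changes (LPS versus vehicle, and calycosin plus LPS versus LPS) were sought among 8778 genes over the 3 groups, as the shortest distance between the pairs of log2 values. The nearest to Il23a were Adamts4, a matrix protease (4.94 and 2.57, distance 0.62), and Fam171b (4.65 and 1.55, distance 0.74). Lif was nearest to Csf2, the cytokine GM-CSF (10.29 and -3.41, distance 0.35), and to the chemokine Ccl2 (9.96 and -2.72, distance 0.53). For Il27 they were the chemokine Cxcl2 (distance 0.11) and Heatr9 (distance 0.30), and for Ebi3 Errfi1 (distance 0.07) and the lectin receptor Clec4e (distance 0.09). Osm had Bcar3 (distance 0.22) and Perm1 (distance 0.24) as its nearest genes. Slfn1 and Iigp1 were nearest to Il6, at 0.43 and 1.25, but the fitted Il6 change against vehicle has no counts on 1 side and depends on the prior count.

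Receptors for these cytokines moved in both directions. Of 10 receptor genes, 6 were tested. LPS versus vehicle called 2 higher and 3 lower, with a median log2 change of 0.22. Over all genes the median was -0.07, with 27.3% higher and 28.9% lower. Il6ra, which binds IL-6, fell 8.14-fold with LPS, from 37.2 ± 8.37 to 4.56 ± 1.44 CPM (SD, n = 3). It was 2.79-fold higher with calycosin than with LPS alone, at 12.8 ± 3.84 CPM (adjusted p = 0.00553, edgeR). The latter call was lost in 1 of 21 alternative settings, limma on log2(TPM + 1) (adjusted p = 0.0501). Il6st, the gp130 chain, was at 61.2, 41.8 and 56.4 CPM with vehicle, LPS and calycosin plus LPS. Its call in LPS versus vehicle (log2 fold change -0.55, adjusted p = 0.0458, edgeR) was lost in 9 of 21 alternative settings, with adjusted p-values of up to 0.119, and among them leaving out vehicle replicate 3 or any LPS library.

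Il10ra, the ligand-binding chain of the IL-10 receptor, showed the opposite order to Il6ra. It rose 6.84-fold with LPS, from 3.10 ± 0.555 to 21.3 ± 5.78 CPM, and was 2.18-fold lower with calycosin at 9.75 ± 3.59 CPM (adjusted p = 0.0197, edgeR). That last call was lost in 7 of 21 alternative settings, among them library totals only and leaving out LPS replicate 1 or 2, or calycosin plus LPS replicate 1 or 3. Its partner chain Il10rb was at 40.3, 80.2 and 54.1 CPM, called higher with LPS and lower with calycosin than with LPS alone. Both Il10rb calls were lost with library totals only and with limma on TPM. Il12rb1, a chain of the IL-12 and IL-23 receptors, was at 3.04, 1.18 and 2.31 CPM, lower with LPS (adjusted p = 0.00167, edgeR) and higher with calycosin (adjusted p = 0.0228, lost in 4 of 21 alternative settings, each without 1 library: LPS replicate 1 or 3, or calycosin plus LPS replicate 1 or 2). Il27ra had group means of 0.142, 0.353 and 0.757 CPM. It passed the filter on low counts only through the calycosin plus LPS group, so a higher call there is no measure of its response. It was called only in calycosin plus LPS versus vehicle (adjusted p = 0.0239, edgeR). That call was lost in 6 of the 20 alternative settings that tested it. These were library totals only, limma on TPM, and fits without vehicle replicate 2, calycosin plus LPS replicate 2 or both libraries that stood apart. Il12rb2, Il23r, Lifr and Osmr were not tested, with group means of at most 0.196 CPM. In calycosin plus LPS versus LPS the receptor list had 2 higher and 2 lower (median log2 change 0.70). Over all genes that median was 0.02, with 16.1% higher and 12.9% lower. In calycosin plus LPS versus vehicle the list had 3 higher, with Il27ra among them, and 1 lower, against 25.4% and 23.6% of all genes. The call on Il10rb against vehicle was lost in 5 of 21 alternative settings, among them library totals only and leaving out vehicle replicate 1 or 2, and its direction turned with limma on TPM.

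Other cytokines of these families were scarce, and 3 of 9 (Il11, Cntf and Ctf1) were tested. Il11, a gp130 ligand, was at 0.338, 0.936 and 0.317 CPM, higher with LPS and lower with calycosin than with LPS alone. The first call was lost with library totals only and with limma on TPM. The second was lost with limma on TPM and without LPS replicate 1 or calycosin plus LPS replicate 1 or 2. Cntf, another gp130 ligand, was at 0.0953, 0.536 and 0.158 CPM and was called only in LPS versus vehicle (adjusted p = 0.0367, edgeR). It passed the filter on low counts only through the LPS group, so this call is no measure of its response. The call was lost in 11 of the 20 alternative settings that tested it. These included fits without both libraries that stood apart, any LPS library, vehicle replicate 1 or 3, or calycosin plus LPS replicate 2. Ctf1 was not called in any comparison.

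Of the kinases and STAT factors downstream, 5 of 5 tested were higher with LPS. Their median log2 change was 2.29, against -0.07 over all genes, of which 27.3% were higher and 28.9% lower. The Jak1 and Tyk2 calls in this comparison were lost with limma on TPM, and that on Jak1 also with library totals only. With both agents 3 were lower than with LPS alone (median -0.45, against 0.02 over all genes, of which 16.1% were higher and 12.9% lower). Jak2 went from 44.9 ± 10.2 to 896 ± 19.8 CPM with LPS and to 551 ± 51.2 CPM with calycosin plus LPS (SD, n = 3). Stat3 went from 70.5 ± 5.30 to 346 ± 12.5 and 186 ± 10.9 CPM, 1.86-fold lower with calycosin (adjusted p = 3.87e-04, edgeR). Jak1 was 1.37-fold lower. The calls on Jak1, Jak2 and Stat3 in calycosin plus LPS versus LPS were lost with limma on TPM, and that on Jak1 also with library totals only. All 5 were called above vehicle with calycosin plus LPS, where 25.4% of all genes were higher and 23.6% lower. Jak1 turned direction with library totals only and with limma on TPM. Its call was lost in 11 of 21 alternative settings, among them leaving out vehicle replicate 1 or 2 or any calycosin plus LPS library. The Tyk2 call was lost with library totals only and with limma on TPM.

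Genes known to respond to STAT3 or IL-10 were all called higher with LPS (9 of 9, median log2 change 4.61). Socs1, Socs2 and Cish passed the filter on low counts only through the stimulated groups. This count and median are therefore no measure of how the list responds. Over all genes the median was -0.07, with 27.3% higher and 28.9% lower. Sbno2 turned direction with library totals only and with limma on TPM. Its call was lost in 9 of 21 alternative settings. Among them were fits without both libraries that stood apart, vehicle replicate 1 or 3, or LPS replicate 1 or 2. The Il4ra call was lost with limma on TPM. With calycosin 3 were lower and 1 higher than with LPS alone (median -0.28). Over all genes that median was 0.02, with 16.1% higher and 12.9% lower. Socs3, a feedback inhibitor of gp130 signalling, had 6.87 ± 1.65 CPM with vehicle, 193 ± 5.97 with LPS and 33.8 ± 6.06 with calycosin plus LPS, 5.70-fold lower with calycosin (log2 fold change -2.51, SE 0.19, adjusted p = 5.94e-05, edgeR). Cish, of the same inhibitor family, was 3.62-fold lower (20.8 ± 2.17 to 5.75 ± 0.493 CPM), and Etv3, a transcriptional repressor, 1.46-fold lower. The Etv3 call was lost with library totals only, with limma on TPM and without LPS replicate 2 or calycosin plus LPS replicate 1 or 3. Socs1, an inhibitor of JAK kinases, went the other way, from 7.45 ± 0.902 CPM with LPS to 15.0 ± 3.07 CPM (2.01-fold, adjusted p = 0.00344, edgeR). The kinase gene Pim1 had 500 ± 21.7 and 491 ± 75.4 CPM in these groups and was not called. Against vehicle 8 of 9 were higher with both agents, where 25.4% of all genes were higher and 23.6% lower, and Sbno2 was not called. The filter limit on Socs1, Socs2 and Cish applies to this count too.

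Transcription factors known to act on these cytokine genes gave 12 higher and 1 lower of 14 tested with LPS (median log2 change 1.60, against -0.07 over all genes, of which 27.3% were higher and 28.9% lower), and 3 higher and 5 lower with calycosin than with LPS alone (median -0.10, against 0.02 over all genes, of which 16.1% were higher and 12.9% lower). Among the 12, Irf8 and Nfil3 turned direction with library totals only and with limma on TPM. The Nfil3 call was lost in 8 of 21 settings, also without vehicle replicate 2 or 3 or LPS replicate 1 or 3. Cebpb and Cebpd lost this call with limma on TPM, and Cebpd also with library totals only. In calycosin plus LPS versus LPS, Irf5 (lower) lost its call in 5 of 21 settings and Irf8 (higher) in 4. Both were lost with limma on TPM and without LPS replicate 1. Nfkbiz, a nuclear I-kappaB protein needed for Il6 induction, went from 14.3 ± 5.24 to 1394 ± 128 CPM with LPS and to 639 ± 168 CPM with both agents, 2.18-fold lower with calycosin (adjusted p = 0.0117, edgeR). Nfkb1, an NF-kappaB subunit, was 2.02-fold lower and Cebpb, a C/EBP factor, 1.91-fold lower, and both calls were lost with limma on TPM. Cebpd was 1.59-fold lower, with the call lost in 10 of 21 alternative settings, among them leaving out any of the LPS libraries, vehicle replicate 1, or calycosin plus LPS replicate 1 or 3. Irf1, an interferon regulatory factor, was 1.74-fold higher with calycosin, at 208 ± 10.9 against 120 ± 13.0 CPM (adjusted p = 0.00205, edgeR). Bhlhe40, known as a repressor of Il10, was the 1 factor lower with LPS (40.5 to 25.1 CPM) and was 1.48-fold higher with calycosin than with LPS alone. Rel and Rela, NF-kappaB subunits with an activation domain, were not called in that comparison (log2 differences -0.30 and -0.22).

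Of 7 genes for proteins that control the stability of cytokine mRNA, LPS versus vehicle called 5 higher and 1 lower (median log2 change 1.13). Over all genes the median was -0.07, with 27.3% higher and 28.9% lower. With calycosin 3 of the 7 were lower than with LPS alone (median -0.13). Over all genes that median was 0.02, with 16.1% higher and 12.9% lower. Zc3h12a encodes Regnase-1, a nuclease that degrades Il6 and Il12b mRNA. It had 7.37 ± 0.193 CPM with vehicle, 189 ± 21.2 with LPS and 71.9 ± 7.23 with both agents (2.63-fold lower with calycosin, adjusted p = 1.05e-04, edgeR). Zfp36, the decay factor tristetraprolin, was 1.76-fold lower with calycosin, at 219 ± 7.75 against 386 ± 39.3 CPM, a call lost with limma on TPM. Arid5a, which is known to stabilise Il6 mRNA, was 1.89-fold lower (adjusted p = 0.0302, edgeR). That call was lost with library totals only, with limma on TPM and without any 1 of the 6 stimulated libraries. Rc3h1, among the 5 called higher with LPS, turned direction with library totals only and with limma on TPM. Its call was lost in 11 of 21 alternative settings, among them the replicate block and leaving out vehicle replicate 1 or 2. Rc3h2, also among the 5, lost its call with limma on TPM. The call on Zfp36l1, the 1 gene lower with LPS, was lost in 4 of 21 settings. These left out vehicle replicate 3 or any LPS library.

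**Figure D5:**
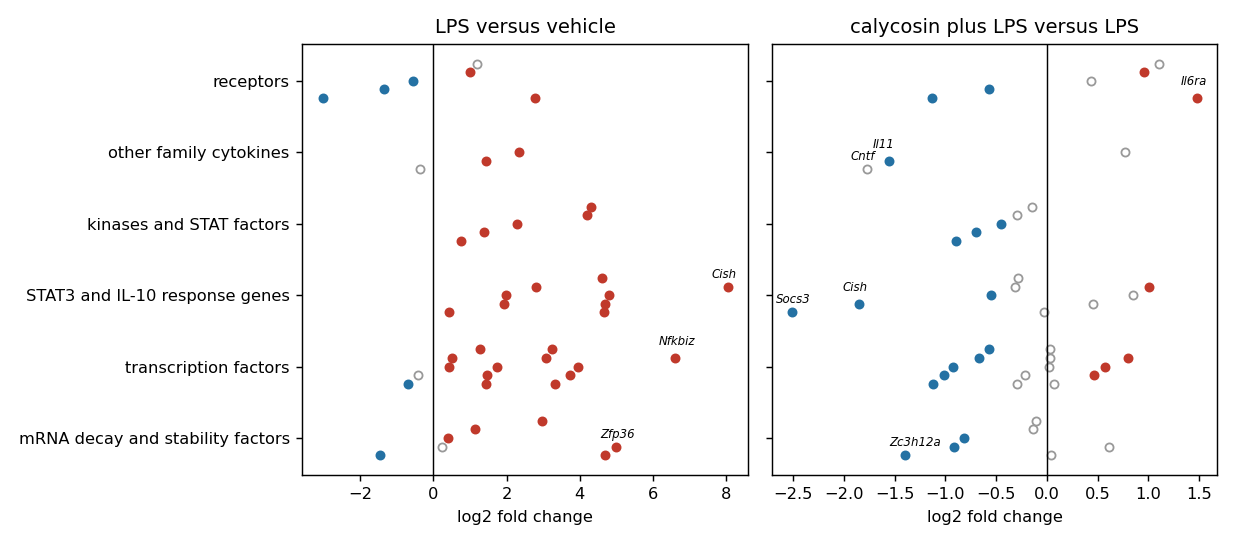
Log2 fold change of each tested gene in the 6 pathway lists, for LPS versus vehicle (left panel) and calycosin plus LPS versus LPS (right panel), with red for called higher, blue for called lower and open grey for not called. In the left panel 9 of 9 STAT3 and IL-10 response genes are higher, against 27.3% of all genes tested. Of these, Socs1, Socs2 and Cish passed the filter on low counts only through the stimulated groups. In the right panel Socs3 lies lowest at -2.51 while Il6ra lies highest at 1.48.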

How the data were processed

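RNA was isolated with Trizol and mRNA captured on poly-T beads, per the labels' protocols. Per the submitters' processing notes, Trimmomatic 0.36, HISAT2 2.0 and StringTie 1.3.3b were used with build mm10, in no stated order. The authors deposited raw counts for 51826 genes and TPM values for 51799 genes; no source used here gives the counter, annotation release or strandedness. Counts were filtered with filterByExpr (14458 genes kept), scaled by TMM (factors 0.786 to 1.42) and fitted over all 9 libraries with edgeR 4.0.16 in R 4.3.3. Groups were compared with two-sided quasi-likelihood F tests, adjusted by Benjamini-Hochberg over all genes tested. CPM are counts over scaled library sizes. Chain ratios used log2(TPM + 0.1) and exact permutation tests in SciPy 1.17.1. Genes named were the 9 cytokine genes, the receptors and the 2 nearest genes by change. Up to 4 called genes with the largest change were also named per pathway list and comparison. Ctf1, Sbno2, Il4ra, Cebpd, Irf8, Nfil3, Bhlhe40, Rel, Rela and Rc3h1 were named after their values were seen. So were Apobr, Gm16712, the neighbouring genes and the cell type markers named singly. The members and lists were chosen with earlier results of these data known. Alternatives were DESeq2 1.42.0, limma 3.58.1 on log2 TPM, other scalings and filters, and libraries left out. No pair of libraries of the same group was a duplicate, and pairs across groups were not checked. The fitting was tested on simulated data that held no libraries that stand apart. The libraries carry no molecular identifiers, so floors reflect counting error alone.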

Additional observations from a re-analysis of the deposited data

How the results depend on the processing

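For the 18 comparisons of the 6 tested genes, 21 alternative settings each were run. Of these comparisons 16 kept their direction and call throughout, none turned direction, and Il27 in calycosin plus LPS versus LPS and Osm in calycosin plus LPS versus vehicle lost their call in 8 and 2 settings. Il27 had adjusted p-values from 2.37e-04 to 0.667 over its settings. Scaling by library totals only moved the median log2 change of all genes from 0.02 to 0.33 in calycosin plus LPS versus LPS, from -0.07 to -0.77 in LPS versus vehicle, and from -0.00452 to -0.40 in calycosin plus LPS versus vehicle. Relative to that median Il27 was at -0.67 and Il23a at 2.00. limma on log2(TPM + 0.1) gave a median of 0.34 and an Il27 value of -0.67 relative to it; the cause of the lost calls was not tested. With the replicate block, Il27 was at -0.66 (adjusted p = 0.036), and no call on a family gene changed. Libraries with the same number correlated from -0.17 to 0.36, so the numbers were not taken to pair them. With the mitochondrial share as a covariate, 3480 genes were higher and 3307 lower in calycosin plus LPS versus LPS, with no member call changed. Depth limits Il12a and Il10, with 0 counts in all 9 libraries, and Il12b, with at most 14 in any library.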

Other observations

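Genes close to the cytokine genes were also examined, a choice made after the data were seen. The starts of 18 other protein-coding genes lie inside the 9 genes or within 50000 bases of either end of them, and 14 of these genes were tested. Of these, 8 were higher and 1 lower in LPS versus vehicle, against 27.3% and 28.9% of all genes tested. In calycosin plus LPS versus LPS 2 were higher and 1 lower, close to the 16.1% and 12.9% of all genes tested. Calycosin plus LPS versus vehicle had 8 higher and 0 lower, against 25.4% and 23.6% of all genes tested. Apobr, whose exons overlap those of Il27, is among the higher genes in both comparisons with vehicle. All 18 genes lie near Il23a, Il27, Ebi3, Lif or Osm. Next to Il23a, Stat2, a mediator of interferon signalling, went from 33.5 CPM with vehicle to 476 with LPS and 478 with both agents, and was not called in calycosin plus LPS versus LPS, where Il23a rose (Stat2 edgeR adjusted p = 0.986). Pan2, whose start is 4583 bases from that of Il23a, was at 21.4, 19.2 and 22.9 CPM and was not called in any of the 3 comparisons. Near Osm, Castor1 went from 5.79 to 1.93 and 4.61 CPM, lower with LPS and higher with calycosin than with LPS alone (log2 change 1.26, edgeR adjusted p = 0.0111), the opposite order to Osm and Lif. Nupr1, near Il27, was higher with calycosin than with LPS alone (181 to 337 CPM), and Yju2, near Ebi3, was lower (29.1 to 18.2 CPM).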
